A study of Mus musculus with 8 samples.

Results

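The genes described here are the cilia and flagella associated protein (Cfap) genes, defined by name: a gene belongs when its symbol in the deposited table is Cfap followed by a number. The rule found 35 of 55357 genes. Of these, 33 passed the filter on low values, a TPM value (transcript abundance scaled for length and depth) of at least 1 in at least 1 library, and were tested together with all 20187 genes that passed it. The other 2, *Cfap73* and *Cfap97d1*, had 0 counts in all 8 libraries, which allows at most the 3 counts taken here as the smallest signal of a library.

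RNA came from germ cells released by enzymes from the testes of C57BL/6 males at 15 days after birth, with 1 library per mouse. The 4 controls were *Mgat2*[F/F], homozygous for floxed alleles of the gene for the N-glycan branching enzyme MGAT2. The 4 cKO males were *Mgat2*[F/F]:*Stra8*-iCre and carried the same alleles with a Cre recombinase driven by the *Stra8* promoter, which acts in spermatogonia and their descendants, so that other cells of the testis keep *Mgat2*. The comparison asks which transcripts differ between cKO and control germ cells at an age when the first wave of spermatogenesis has reached meiosis.

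Cfap proteins build the axoneme, the bundle of microtubules that makes motile cilia and the sperm tail beat. They sit in the central apparatus, in the radial spokes that link it to the outer doublets, in the tethers of the inner dynein arms and inside the doublet microtubules themselves. In the testis many of their transcripts appear in spermatocytes, before any tail is formed, and loss of several of these proteins in mice or humans gives short or bent sperm tails.

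Total expected counts were 12584726 to 15907505 per library, so the 3-count floor was worth 0.190 to 0.234 CPM (counts scaled to a common library size, here normalized with TMM factors), which covers counting error only. The 4 controls held 56.4 ± 16.9 CPM of *Mgat2* (SD) and the 4 cKO libraries 27.2 ± 10.8 CPM, with groups that overlapped. Markers of germ cells were present as the label says, but Sertoli markers were too, with a summed level of 5330 to 6468 TPM over 10 markers in controls and 5444 to 6474 TPM in cKO libraries. The libraries numbered 1 stood apart from the others in both genotypes, as the Cfap genes below show, and results are therefore given with and without them. They stood apart in the same genes that are tested, so calls without them are a description and not a second, independent test. P-values measure the spread between these 8 mice. In libraries of bulk RNA, fewer cells of a type and less RNA per cell cannot be told apart.

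As a family, Cfap transcripts were lower in cKO germ cells, though no single gene passed the main test. The median log2 fold change (cKO over control) of the 33 genes was -1.26, against 0.01 for all genes tested. The fitted change was below 0 in 32 of the 33 Cfap genes, against 48.6% of all genes, and the fitted difference was 2-fold lower or more in 20 of them, against 9.88% of all genes. In 7 of the 33 every cKO library was below every control library on CPM, against 3.03% of all genes. These 7 were *Cfap44*, *Cfap46*, *Cfap58*, *Cfap65*, *Cfap69*, *Cfap74* and *Cfap221*. On TPM, which also allows for transcript length, 6 were apart in this way, namely *Cfap20*, *Cfap43*, *Cfap54*, *Cfap65*, *Cfap74* and *Cfap221*. The share of all genes apart on TPM was not computed, so these 6 cannot be set against it.

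With edgeR's quasi-likelihood test and Benjamini-Hochberg adjustment over all genes, 0 of the 33 had an adjusted p under 0.05, where 0.0396% of all genes were called lower. The smallest adjusted p was 0.072 in edgeR, for *Cfap74*. Before adjustment, 13 of the 33 had an edgeR p under 0.05, all lower in cKO, against 6.28% of all genes. DESeq2 called 9 of the 33, all lower in cKO, against 1.42% of all genes: *Cfap44*, *Cfap45*, *Cfap46*, *Cfap54*, *Cfap58*, *Cfap65*, *Cfap69*, *Cfap74* and *Cfap221*. It gave no adjusted p for 3 of the 33, *Cfap97d2*, *Cfap100* and *Cfap157*, which had low counts. EdgeR without replicate 1 of both genotypes called 14, all lower, against 3.78% of all genes. Of these 14, 6 were among the 9 of DESeq2, namely *Cfap44*, *Cfap45*, *Cfap54*, *Cfap58*, *Cfap74* and *Cfap221*. The other 8 were *Cfap43*, *Cfap52*, *Cfap57*, *Cfap70*, *Cfap97*, *Cfap206*, *Cfap298* and *Cfap299*.

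**Figure D1:**
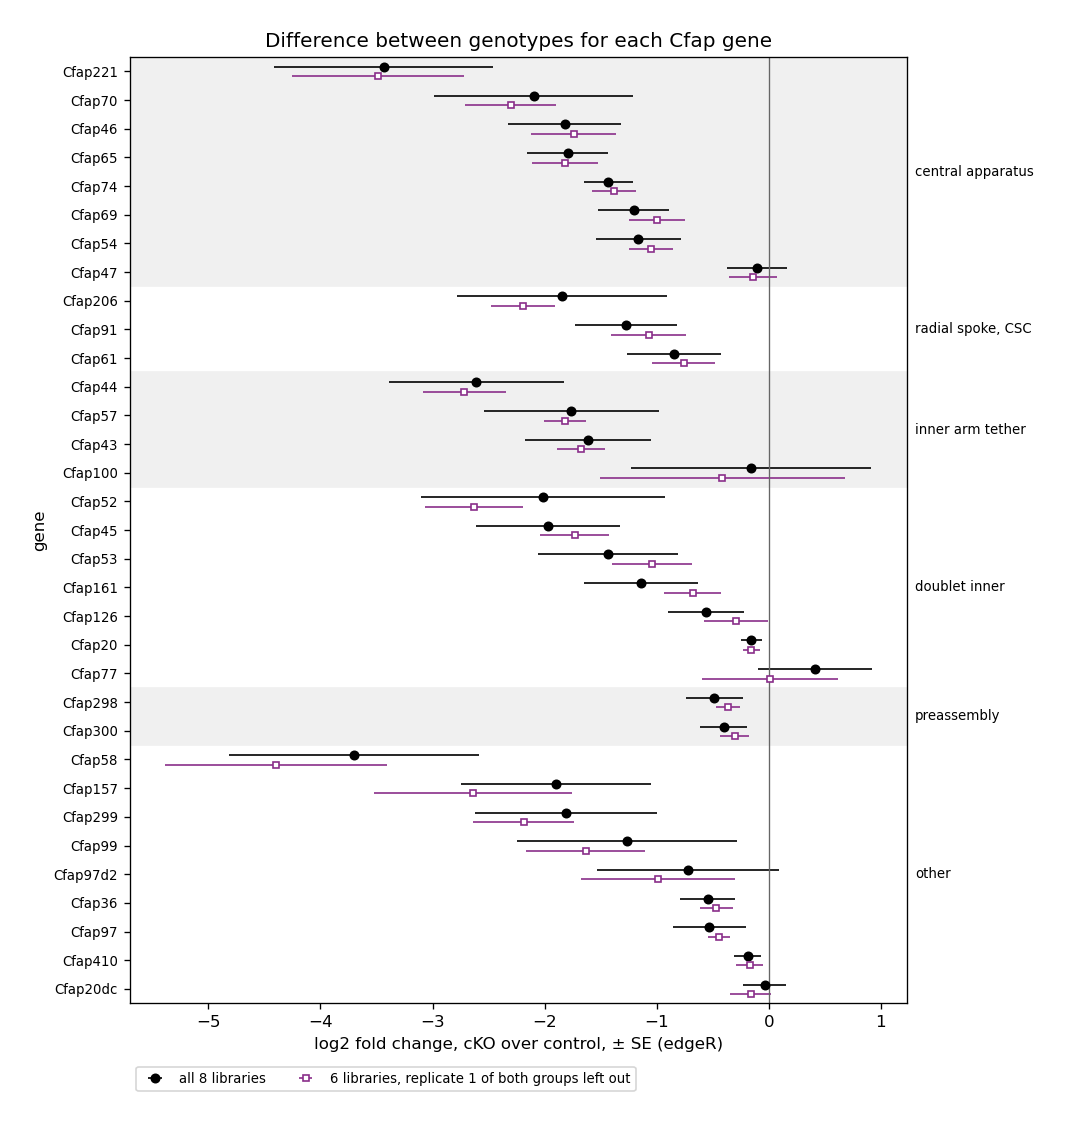
Log2 fold change of each tested Cfap gene, cKO over control, with its standard error from edgeR, grouped by place in the axoneme. Filled circles use all 8 libraries and open squares the 6 libraries without replicate 1, and all points but that of *Cfap77* lie below 0 with 8 libraries.

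The distribution of all 20187 genes was narrow and centred near 0, with 32.6% of genes between -0.5 and 0 and 43.7% between 0 and 0.5 on the log2 scale. Cfap genes were spread below it. Of the 33, 7 lay between -0.5 and 0 and 1 between 0 and 0.5, while 8 lay between -2 and -1.5.

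**Figure D2:**
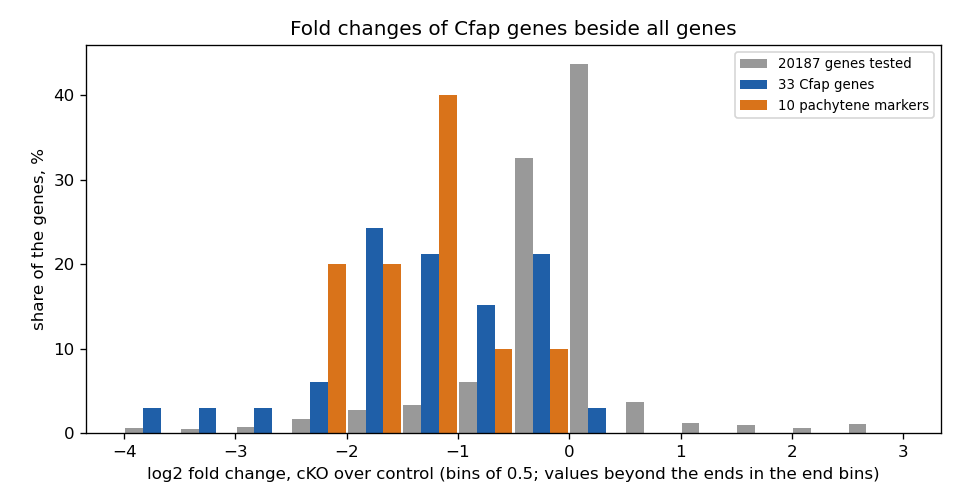
Share of genes, in percent, in each 0.5-wide bin of the log2 fold change (cKO over control), for all 20187 genes tested, the 33 Cfap genes and 10 markers of pachytene spermatocytes. The Cfap genes and the pachytene markers lie mostly between -2.5 and -0.5, where few of all genes lie.

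In control germ cells the level of Cfap genes, compared per length as TPM, ran from 0.305 for *Cfap100* to 121 for *Cfap20*, with a median over the 33 genes of 12.6 TPM against 9.76 TPM for all genes tested. Only 3 genes were at 50 TPM or more, 16 were between 10 and 50 TPM, 13 between 1 and 10 TPM and 1 under 1 TPM. The 3 highest were *Cfap20*, *Cfap36* and *Cfap298*. *Cfap20*, which encodes a protein of the inner junction between the tubules of a doublet, was at 115, 113, 132 and 124 TPM in control replicates 1 to 4 and at 109, 111, 103 and 111 TPM in cKO replicates 1 to 4. Its groups differed little, with a log2 fold change of -0.16 (SE 0.09), the smallest error of the family. *Cfap36* was at 170, 97.2, 123 and 87.7 TPM in control and 113, 76.9, 70.7 and 79.2 TPM in cKO libraries. *Cfap298* was at 114, 61.2, 59.9 and 55.1 TPM in control and 68.7, 39.5, 45.5 and 41.1 TPM in cKO libraries. In both genes cKO replicate 1 was above at least 1 control library, and the level of *Cfap20* and *Cfap36* in controls could not be ranked beyond their spread. Across the 33 genes the control level and the log2 fold change had a Spearman's rho of 0.11, a description over genes measured in the same libraries.

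**Figure D3:**
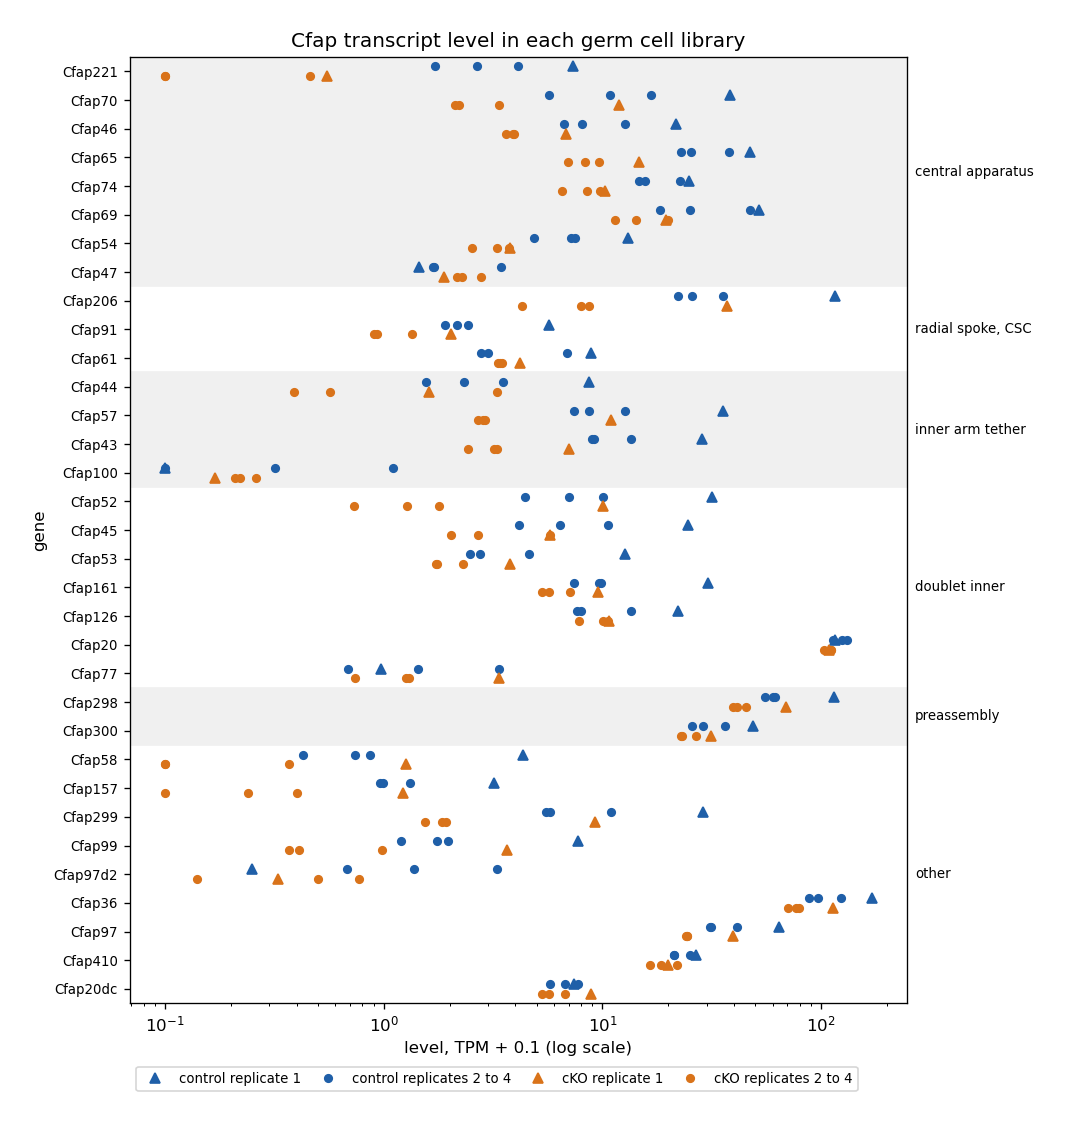
Level of each tested Cfap gene in each library, as TPM plus 0.1 on a log axis, with triangles for replicate 1 and circles for replicates 2 to 4 of each genotype. Replicate 1 is the rightmost point of its genotype in most genes, while the 8 points of *Cfap20* lie close together, at 103 to 132 TPM.

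Of the 9 genes called by DESeq2, 6 encode proteins of the central apparatus, the pair of microtubules with projections in the middle of the axoneme. This group has 8 tested genes, 4 were called by edgeR without replicate 1, and the median log2 fold change was -1.61. *Cfap74*, *Cfap46*, *Cfap54* and *Cfap221* encode partners in 1 projection, and *Cfap65*, *Cfap69* and *Cfap70* encode other proteins of the apparatus that the sperm tail needs. *Cfap74* (chromosome 4 of GRCm39, 155493613 to 155551280, forward strand) was at 58.9, 34.4, 52.2 and 30.8 CPM in control replicates 1 to 4 and at 20.1, 16.1, 13.7 and 15.5 CPM in cKO replicates 1 to 4. All cKO libraries were below all controls, and the SE was the smallest of the 20 genes lower by 2-fold or more. The log2 fold change of *Cfap74* was -1.43 (SE 0.22, adjusted p = 0.072 from edgeR), and over 18 alternative settings its adjusted p ran from 2.3e-07 to 0.40. It was below 0.05 in 6 of these, among them DESeq2, edgeR without replicate 1 and edgeR with upper-quartile normalization.

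*Cfap65* (chromosome 1, 74941230 to 74974792, reverse strand) was at 156, 76.3, 118 and 67.5 CPM in control and 45.9, 20.8, 25.4 and 28.4 CPM in cKO libraries. Every cKO value was again below every control value, and 28.9% of the control level was left by the fit. Its log2 fold change was -1.79 (SE 0.36, adjusted p = 0.30 from edgeR). *Cfap46* (chromosome 7, 139180867 to 139263733, reverse strand) was at 83.2, 30.0, 48.5 and 24.1 CPM in control and 21.6, 7.70, 13.4 and 9.86 CPM in cKO libraries. Here the groups were apart by little, since cKO replicate 1 lay just below control replicate 4. On TPM these 2 libraries were in the other order, at 6.70 and 6.60 TPM. The log2 fold change of *Cfap46* was -1.82 (SE 0.50).

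*Cfap69* (chromosome 5, 5629278 to 5714259, reverse strand) was at 69.6, 32.7, 45.2 and 25.0 CPM in control and 23.0, 17.1, 14.4 and 20.1 CPM in cKO libraries. The groups did not overlap on CPM but did on TPM, where cKO replicates 1 and 4, at 19.5 and 19.9 TPM, were above control replicate 4, at 18.3 TPM. Its log2 fold change was -1.21 (SE 0.32), and it was called by DESeq2 but not by edgeR without replicate 1. *Cfap54* (chromosome 10, 92611481 to 92923165, reverse strand) was at 49.3, 19.1, 31.0 and 17.1 CPM in control and 19.5, 10.2, 11.0 and 11.3 CPM in cKO libraries. In this gene cKO replicate 1 lay above control replicates 2 and 4, and without replicate 1 of both genotypes the groups were apart.

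*Cfap221* had the lowest counts of the apparatus genes that were called, at 7.81, 1.88, 2.97 and 1.41 CPM in control and 0.730, 0.518, 0 and 0 CPM in cKO libraries. Its log2 fold change of -3.44 (SE 0.98) rests on 11 and 8 counts in cKO replicates 1 and 2, and the other 2 cKO libraries had no count. *Cfap70* was the reverse case, well expressed and lower by 2.10 on the log2 scale (SE 0.89), with overlap because cKO replicate 1, at 20.8 CPM, was above control replicates 2 and 4, at 18.7 and 11.5 CPM. *Cfap47*, the X-linked member of the apparatus, stood aside from the others at 4.55, 8.82, 6.89 and 7.65 CPM in control and 4.78, 9.51, 5.23 and 6.38 CPM in cKO libraries. Its groups overlapped fully, and the log2 fold change was -0.11 (SE 0.27). Its mean level was 1.97 TPM in control and 2.19 TPM in cKO libraries, and its sign turned under 3 of the alternatives.

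Of the proteins at the base of the radial spokes, *Cfap61* and *Cfap91* encode parts of the calmodulin- and spoke-associated complex and *Cfap206* encodes a protein that docks a spoke on the doublet. Of these 3 genes 0 were called by DESeq2 and 1, *Cfap206*, by edgeR without replicate 1, and 1, *Cfap91*, had an unadjusted edgeR p under 0.05. *Cfap206* was at 120, 24.6, 38.5 and 20.5 CPM in control and 38.2, 6.67, 7.12 and 4.54 CPM in cKO libraries. The library numbered 1 was far above the next library of its genotype in both groups, and cKO replicate 1 was higher than control replicates 2 and 4. The log2 fold change was -1.85 (SE 0.93). Without replicate 1 the log2 fold change of *Cfap206* was -2.19. The log2 fold changes of *Cfap91* and *Cfap61* were -1.27 (SE 0.45) and -0.84 (SE 0.42).

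The inner dynein arms are motors along the doublet. *Cfap43* and *Cfap44* encode a pair of proteins that tether one of them, and *Cfap57* encodes another protein of the arm's base. *Cfap44* was at 27.0, 6.94, 11.2 and 5.15 CPM in control and 4.65, 1.10, 1.88 and 0.567 CPM in cKO libraries. All cKO libraries were below all controls on CPM, but on TPM cKO replicate 3, at 3.18 TPM, was above control replicates 2 and 4, at 2.23 and 1.46 TPM. The log2 fold change of *Cfap44* was -2.61 (SE 0.78). Its partner *Cfap43* and *Cfap57* were lower by 1.61 (SE 0.56) and 1.76 (SE 0.78) on the log2 scale and were called by edgeR without replicate 1, at -1.68 and -1.82, but not by DESeq2. *Cfap100*, which encodes a modifier of an inner arm, had 0 to 8 counts in each library, too few to show a difference, and *Cfap73*, its partner, was not detected.

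Genes for proteins inside the doublet microtubules had log2 fold changes from -2.02 to 0.41. *Cfap45* and *Cfap52* encode proteins of the inner wall of the doublet. *Cfap45* was at 26.7, 7.39, 10.9 and 4.37 CPM in control and 5.71, 1.75, 3.14 and 1.99 CPM in cKO libraries. On CPM only cKO replicate 1 reached into the control range. On TPM cKO replicates 1 and 4 did, at 5.68 and 5.69 TPM against 4.05 TPM in control replicate 4. The log2 fold change of *Cfap45* was -1.97 (SE 0.64), and DESeq2 and edgeR without replicate 1 both called it. *Cfap52* was lower by 2.02 on the log2 scale with all libraries (SE 1.09) and by 2.63 without replicate 1, where it was called. The 36.3% of its exon length that overlaps *Stx8* and another gene on the opposite strand cannot be separated, since the libraries were not stranded.

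*Cfap53*, *Cfap161* and *Cfap126*, which also encode proteins of the doublet lumen, had log2 fold changes of -1.43, -1.14 and -0.56 and were called neither by DESeq2 nor by edgeR without replicate 1. *Cfap77* was the only Cfap gene with a fitted change above 0. It was at 0.679, 1.23, 0.442 and 0.859 CPM in control and 1.73, 0.453, 1.12 and 0.993 CPM in cKO libraries. These are 7 to 26 counts per library, the groups overlapped, and the log2 fold change was 0.41 (SE 0.51), or 0.01 without replicate 1. The level of *Cfap20*, given above, likewise overlapped on CPM but not on TPM.

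*Cfap298* and *Cfap300* encode cytoplasmic factors that assemble or carry dynein arms before they enter the cilium. Their log2 fold changes were -0.49 (SE 0.25) and -0.40 (SE 0.21), and the groups overlapped in both. EdgeR without replicate 1 called *Cfap298* at a log2 fold change of -0.36. In that gene 43.6% of the exon length overlaps genes on the opposite strand.

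The remaining 9 tested genes have other or less settled places. *Cfap58*, needed for the assembly of the sperm tail's midpiece and axoneme, was at 6.65, 1.49, 1.26 and 0.625 CPM in control and 0.597, 0, 0.140 and 0 CPM in cKO libraries. It had the lowest fitted change of the family, at -3.70 (SE 1.12), but 3 of its 4 cKO libraries were at or under 3 counts and the highest cKO library lay just below the lowest control. On TPM these 2 libraries were in the other order, at 1.17 and 0.330 TPM. *Cfap299*, *Cfap157* and *Cfap99* were lower by 1.81, 1.90 and 1.26 on the log2 scale with overlapping groups, and *Cfap299* was called by edgeR without replicate 1. *Cfap157*, which encodes a basal body protein that the sperm axoneme needs, had 0 to 16 counts per cKO library.

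The others of this group differed less. *Cfap36* and *Cfap97* had log2 fold changes of -0.55 (SE 0.25) and -0.53 (SE 0.32), and *Cfap97* was called by edgeR without replicate 1. *Cfap410*, which encodes a protein linked to primary cilia, was at -0.19 (SE 0.12), and 57.9% of its exon length overlaps *Pfkl* on the opposite strand. *Cfap20dc* was at 11.5, 9.98, 8.78 and 11.3 CPM in control and 13.7, 8.02, 10.4 and 8.44 CPM in cKO libraries. It had the smallest fitted difference of all 33 genes, a log2 fold change of -0.04 (SE 0.20). *Cfap97d2* had 27 counts or fewer in each library and a log2 fold change of -0.72 (SE 0.81).

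The spread between mice was large and took the same form in most Cfap genes. The median coefficient of variation over the 33 genes was 60.8% in control and 46.6% in cKO libraries, against 18.6% and 17.7% over all genes tested. Replicate 1 was the highest library of both genotypes in 28 of the 33 genes, and control replicate 4 was the lowest control in 21. The median ratio of control replicate 1 to the mean of the other controls was 2.35 over the Cfap genes and 0.98 over all genes. For cKO replicate 1 these ratios were 2.02 and 0.97. Across genotypes, cKO replicate 1 was above control replicate 4 in 22 of the 33 genes, while the other 3 cKO libraries were all below all controls in 24. The shares of all genes for these 2 counts were not computed. The count of 24 also leaves out the cKO library that was highest in most Cfap genes, so it is a description only.

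The difference between the libraries numbered 1 could be set against that between the means of replicates 2 to 4, which come from other mice. It was below 0 in 28 genes for replicate 1 and in 32 genes for replicates 2 to 4, and below 0 in both for 28. Across the 33 genes the 2 sets of differences had a Pearson's r of 0.82 and a Spearman's rho of 0.87, as a description over genes that share libraries. Across all genes tested these were 0.50 and 0.34. Most of all genes had differences near 0 while the Cfap genes were spread widely, so the 2 pairs of values do not compare agreement. The split was made after replicate 1 was seen to stand apart. Without replicate 1 of both genotypes the median log2 fold change of the 33 genes was -1.05.

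**Figure D4:**
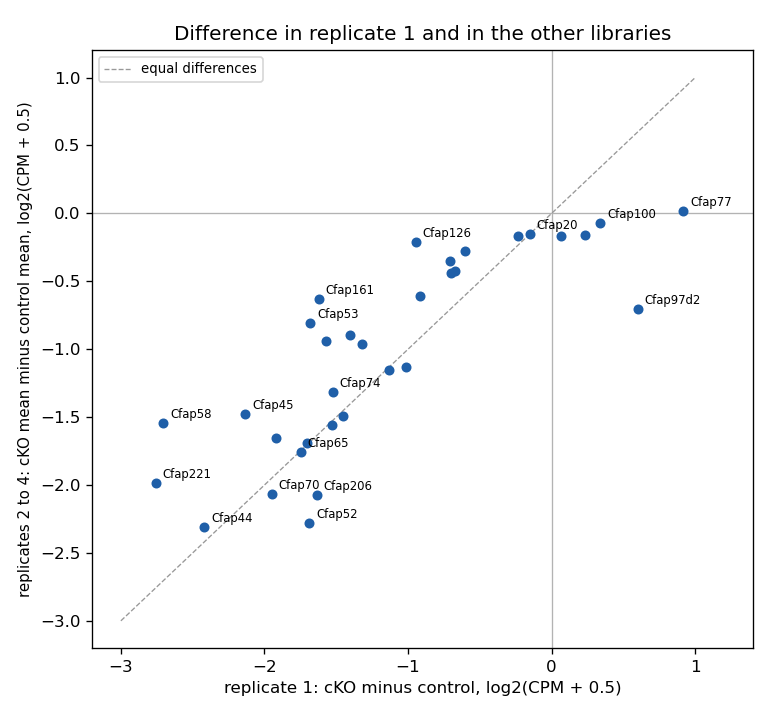
Difference between cKO and control in log2(CPM + 0.5) for the libraries numbered 1 (x axis) and for the means of replicates 2 to 4 (y axis), 1 point per Cfap gene, with a dashed line for equal differences. Most points lie in the lower left, where both are below 0, with a Pearson's r of 0.82, and *Cfap77* is the point farthest to the right.

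Markers of pachytene spermatocytes were lower in cKO libraries alongside the Cfap genes. All 10 of these markers had a fitted change below 0, with a median log2 fold change of -1.33. EdgeR called 0, with 4 lower at an unadjusted p under 0.05, against 6.28% of all genes. DESeq2 called 1, *Piwil1*, and edgeR without replicate 1 called 1, *Spata16*, both lower, against 1.42% and 3.78% of all genes. The summed level of the 10 markers was 3384, 1351, 1739 and 1078 TPM in control replicates 1 to 4 and 1143, 590, 603 and 576 TPM in cKO replicates 1 to 4. The 35 Cfap genes summed to 1121, 553, 710 and 513 TPM in the same control libraries and 579, 380, 378 and 400 TPM in the cKO libraries. Replicate 1 was thus the highest of its genotype in both sums, and cKO replicate 1 was above control replicates 2 and 4 in the Cfap sum and above control replicate 4 in the pachytene sum. For the 15 tested genes of the central apparatus, the spokes and the inner arm tether together, the sum was 10.9% to 12.9% of the pachytene sum in control and 9.99% to 11.5% in cKO libraries, ranges that overlap. This set leaves out the other Cfap groups and does not stand for the whole family. The whole family summed to 724 ± 278 TPM in control and 434 ± 97.0 TPM in cKO libraries (mean ± SD). The pachytene markers summed to 1888 ± 1034 and 728 ± 277 TPM. The family sum was thus lower by a smaller part than the pachytene sum, but sums weigh the most abundant genes. Among these is *Cfap20*, which differed little, with means of 121 TPM in control and 109 TPM in cKO libraries. By gene, the median log2 fold changes were -1.26 for the Cfap genes and -1.33 for the pachytene markers. The part of pachytene spermatocytes in the difference of the Cfap genes was not tested.

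Markers of other cell types had medians nearer 0. For their calls below, the shares of all genes at an unadjusted edgeR p under 0.05 were 6.28% lower and 2.62% higher. DESeq2 called 1.42% of all genes lower and edgeR without replicate 1 called 3.78% lower. The 9 markers of early meiotic prophase had a median log2 fold change of 0.00, and their sums, 915 to 1475 TPM in control and 955 to 1212 TPM in cKO libraries, overlapped. These markers went both ways. EdgeR and DESeq2 called 0 of them, with 1, *Spo11* at -0.54 (SE 0.16), at an unadjusted edgeR p under 0.05. EdgeR without replicate 1 called *Spo11* lower and *Dmc1*, at 0.33 (SE 0.16) with all libraries, higher, where 0.451% of all genes were called higher. Of 11 spermatogonial markers 10 were above 0, with a median of 0.20, sums of 909 to 1096 TPM in control and 1044 to 1262 TPM in cKO libraries. EdgeR called 0 of them, with 1 lower and 1 higher at an unadjusted p under 0.05, and DESeq2 and edgeR without replicate 1 called *Id4*, the 1 below 0. The median was 0.04 for 10 Sertoli markers, 0.02 for 5 Leydig markers and 0.12 for 8 peritubular, endothelial and macrophage markers, of which edgeR without replicate 1 called 1 higher, *Myh11*. Rete testis and efferent duct epithelium, which bears motile cilia next to the tubules, left little trace. The 4 tested of its 6 markers summed to 1.12 to 6.69 TPM, and the untested *Aqp1* and *Lrp2* were under 1 TPM in every library. Of 8 spermatid markers 4 were tested, with a median of -0.29, and they went both ways with overlapping groups. *Dbil5* was at 44.3, 16.7, 11.7 and 13.9 TPM in control and 18.8, 6.95, 9.86 and 5.33 TPM in cKO libraries. Its log2 fold change was -1.05 (SE 0.51). *Spaca1* was at -0.37 (SE 0.23), *Izumo1* at -0.21 (SE 0.39) and *Tnp1*, with 0 to 7 counts per library, at 1.71 (SE 1.42). *Tnp2* and *Prm1* had 0 TPM in all 8 libraries.

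**Figure D5:**
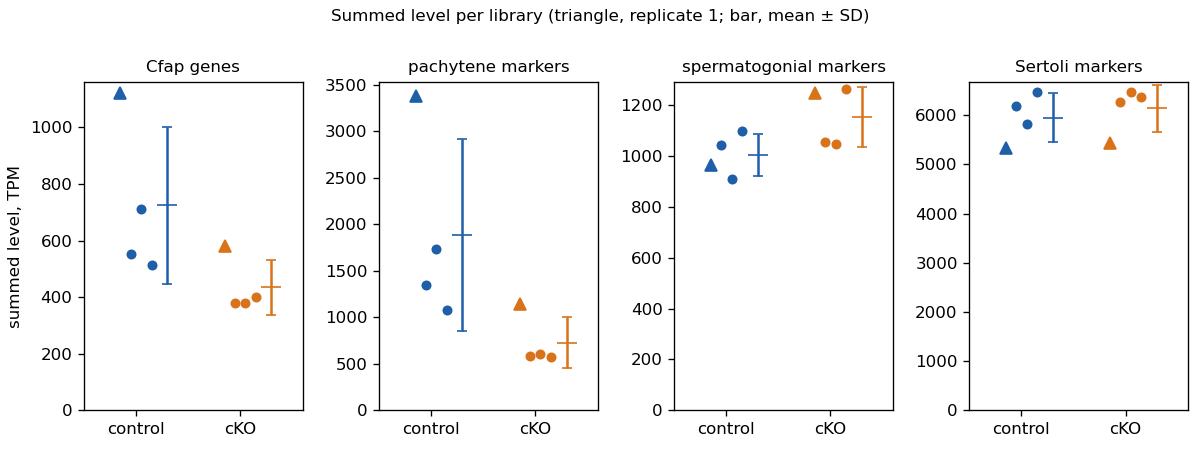
Summed TPM per library of the 35 Cfap genes and of markers of pachytene spermatocytes, spermatogonia and Sertoli cells, with triangles for replicate 1, circles for replicates 2 to 4 and bars for the mean ± SD of the 4 libraries. The Cfap and the pachytene sums are highest in control replicate 1, at 1121 and 3384 TPM, and lowest in cKO replicates 2 to 4, with cKO replicate 1 inside the range of the controls, while the Sertoli sums overlap.

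Genes for other parts of the same axonemal structures took the same direction. Of all genes, 0.0396% were called lower by edgeR, 1.42% by DESeq2 and 3.78% by edgeR without replicate 1. At an unadjusted edgeR p under 0.05, 6.28% of all genes were lower. Of 10 further central apparatus genes 0 were called by edgeR, 2 by DESeq2 and 6 by edgeR without replicate 1, all lower, with 8 at an unadjusted edgeR p under 0.05, and the list's median log2 fold change was -1.31. The 2 of DESeq2 were *Hydin*, a giant protein of the apparatus, at -1.95 (SE 0.56), and *Dlec1*, at -1.52 (SE 0.37). *Spag17* had the largest difference of the list, at -2.18 (SE 0.78). Of 12 tested radial spoke genes the counts were 0, 1 and 9, with 7 at an unadjusted edgeR p under 0.05 and a median of -1.40, and the gene called by DESeq2 was *Nme5* at -1.43 (SE 0.36). *Rsph14*, at -2.29 (SE 0.77), and *Lrrc23*, at -2.11 (SE 0.86), had the largest differences.

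Of 9 tested genes of the nexin-dynein regulatory complex, the link between doublets, and of the ruler that sets the axoneme's repeat, the counts in the same order were 0, 2 and 6, with 4 at an unadjusted edgeR p under 0.05 and a median of -1.53. The 2 called by DESeq2 were *Ccdc39*, a ruler protein, at -1.47 (SE 0.26), and *Iqcd* at -2.04 (SE 0.53). The largest difference was that of *Drc7*, at -2.07 (SE 0.90). Of 15 genes for other proteins inside the doublet, such as tektins, the counts were 0, 3 and 7, with 6 at an unadjusted edgeR p under 0.05 and a median of -0.97. *Tekt3* had the largest difference, at -2.25 (SE 1.36). Those called by DESeq2 were *Spag8* at -1.66, *Efhb* at -1.34 and *Enkur* at -0.96, while *Efhc2* and *Ribc1* lay above 0, at 0.43 and 0.23. Of all these lists the calls in every one of these fits were lower in cKO.

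Transcription factors known for ciliary or meiotic genes were less uniform. Of 10 such genes 0 were called by edgeR, 1 by DESeq2 and 2 by edgeR without replicate 1. These calls were lower, against 1.42% of all genes with DESeq2 and 3.78% without replicate 1. At an unadjusted edgeR p under 0.05, 4 were lower and 1 higher, against 6.28% and 2.62% of all genes, and the median log2 fold change was -0.38. *Rfx4* was the 1 of DESeq2, at 13.6, 5.06, 9.21 and 4.88 TPM in control and 3.70, 1.31, 1.90 and 0.980 TPM in cKO libraries. All its cKO values were below all control values, and the log2 fold change was -2.02 (SE 0.52). *Rfx2*, which acts on ciliary genes in spermatocytes and spermatids, was at -0.81 (SE 0.31) with overlapping groups. *Foxj1*, the regulator of motile cilia in epithelia, was at 0.730 to 2.43 TPM in every library, with a log2 fold change of -0.40 (SE 0.35).

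RFX factors bind the X-box, so the promoters of the Cfap genes were searched for it as a description of sequence. The letters searched were GTNNCC, 0 to 3 bases and GGNNAC on both strands, in the 250 bases before the start of each gene's canonical transcript in the GENCODE annotation of GRCm39. They were found in 5 of 33 Cfap promoters (15.2%), against 3.00% of 20075 promoters of tested genes. Of the 14844 promoters of protein-coding genes among these, the class of all Cfap genes, 3.40% held them. The matches are shown with 7 bases on each side, read along the gene's strand, with the matched letters in capitals, because they fall both in genes that were much lower in cKO and in genes that were not.
Cfap58 (chr19:47926085-47926111, forward strand): cgtggcgGTTGCCAGGCGACcgaagac
Cfap65 (chr1:74974774-74974802, reverse strand): tgccgtcGTTGCCATGGGATACcaaaaga
Cfap43 (chr19:47825853-47825879, reverse strand): gttcccgGTCTCCAGGATACaggtgta
Cfap20dc (chr14:13803374-13803401, forward strand): cccctcaGTTGCCTGGGCAACggctcag
Cfap77 (chr2:28945294-28945321, reverse strand): gcgtcttGTCACCAAGGAGACgggacgt
The first 3 sequences belong to genes with log2 fold changes of -3.70, -1.79 and -1.61. The last 2 belong to genes at -0.04 (SE 0.20) and 0.41 (SE 0.51), each within its error of 0. The part of these letters in the differences was not tested. A match of letters is not a binding site. The FOXJ1 letters TGTTTAC were found in 2 of 33 Cfap promoters, those of *Cfap20* and *Cfap43*. This is 6.06%, against 2.64% of all and 2.34% of protein-coding genes. The letters TGACGTCA of the element bound by CREM were found in 1 of 33, that of *Cfap91*. This is 3.03%, against 1.70% of all and 2.00% of protein-coding genes. The canonical starts of *Cfap43*, *Cfap65* and *Cfap20dc* lie inside the annotated spans of these genes. The span of *Cfap43* runs from 47725296 to 47907726 on chromosome 19 and holds its matches, and 12.3% of its exon length overlaps other genes. The matched letters of *Cfap65*, at 74974781 to 74974795 on chromosome 1, lie partly inside its span, which ends at 74974792.

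The table's symbols are older than those of the annotation used for positions, in which 13 more of its genes are named Cfap. Of these 11 were tested, 9 had a fitted change below 0, against 48.6% of all genes, and the median log2 fold change was -0.33. EdgeR called 0 of them, with 3 lower at an unadjusted p under 0.05, against 6.28% of all genes. DESeq2 called 1 and edgeR without replicate 1 called 3, all lower, against 1.42% and 3.78% of all genes. *Ccdc173*, now *Cfap210* and a protein of the doublet lumen, was at 21.7, 12.9, 15.9 and 11.6 TPM in control and 9.19, 7.68, 7.65 and 6.32 TPM in cKO libraries. It was the 1 of DESeq2, with all cKO libraries below all controls and a log2 fold change of -1.02 (SE 0.23). *Wdr66*, now *Cfap251* and a partner of *Cfap61* and *Cfap91*, was at -1.72 (SE 0.57). *Ccdc189*, now *Cfap119* and a central apparatus protein, was at -0.86 (SE 0.25) with groups apart on CPM. On TPM its groups overlapped, since cKO replicate 1, at 14.85 TPM, was above control replicates 3 and 4, at 14.66 and 14.76 TPM. Others, such as *1700029J07Rik* (*Cfap96*) at -0.13 and *2610301B20Rik* (*Cfap418*) at -0.20, had overlapping groups.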

How the data were processed

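Germ cell RNA of 8 mice was sequenced by the authors with 150 bp paired-end reads after polyA selection, without strand information. Per the labels and the submitters' processing notes, the authors aligned reads to mouse build mm39 (GRCm39) with STAR 2.7.9a and quantified genes with RSEM 1.3.3. They deposited, for 55357 genes, RSEM expected counts, which are estimated counts not normalized between samples, and TPM, scaled within each library for length and depth.

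Expected counts were rounded (6.37% were not whole), and 20187 genes with at least 1 TPM in at least 1 library were tested with edgeR 4.0.16 (TMM, robust quasi-likelihood fit, genotype only, Benjamini-Hochberg over all genes, threshold 0.05), in R 4.3.3. Groups come from the sample titles and genotype labels. Rows with a blank symbol (0.00702% of counts) are not Cfap genes. Alternatives were DESeq2 1.42.0, limma 3.58.1 (voom, and trend on log2(TPM + 1)), DESeq2 size factors, upper-quartile normalization, other filters, a fit that was not robust, the replicate number as a block, and leaving out libraries. The difference in replicate 1 beside that in replicates 2 to 4 was added after the data were seen.

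Positions, overlaps and promoters came from the GENCODE annotation of GRCm39. Full values per library are given for Cfap genes called by edgeR or DESeq2, the 10 largest differences among genes with groups apart, the 3 highest control TPM, genes higher in cKO and the 3 smallest differences. Of each partner list, the genes called by edgeR or DESeq2 and the 2 largest differences are named, with values per library for *Rfx4*. *Foxj1*, *Efhc2*, *Ribc1*, *Spata16*, *Id4*, *Spo11*, *Dmc1*, *Myh11*, the genes with later Cfap names and the values per library of *Cfap206* were added after their values were seen. The family, its naming rule, the lists and roles were chosen with earlier results of these data known, so the contrast of the family with all genes is a description.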

Additional observations from a re-analysis of the deposited data

Results flagged for a closer look

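In 16 of 66 groups of 4 libraries (33 genes, 2 genotypes, CPM), 1 library stood far from the other 3 by Dixon's ratio, its gap to the nearest library divided by the group's range (over Dixon's 95% critical value for 4 libraries). Chance alone puts about 1 in 20 independent groups over it. The 66 groups share the same libraries, so 1 high library recurs in many genes, and the 16 cannot be set against that share. The library was replicate 1 in 15 of the 16, in each of these the highest of its group, 5 times in control and 10 times in cKO. In control the ratios of replicate 1 were 0.853 for *Cfap157*, 0.884 for *Cfap161*, 0.856 for *Cfap58*, 0.849 for *Cfap91* and 0.889 for *Cfap99*. In cKO those of replicate 1 were 0.923 for *Cfap206*, 0.867 for *Cfap298*, 0.960 for *Cfap299*, 0.957 for *Cfap36*, 0.947 for *Cfap43*, 0.868 for *Cfap52*, 0.878 for *Cfap54*, 0.968 for *Cfap57*, 0.931 for *Cfap70* and 0.933 for *Cfap97*. The exception was *Cfap410*, in which cKO replicate 2 was the lowest, at 18.8 CPM against 22.7 CPM in the next library (ratio 0.839). *Cfap57* had the highest ratio, with 26.2 CPM in cKO replicate 1 and 6.67 CPM in the next library. The markers of pachytene spermatocytes were also highest in replicate 1 of both genotypes, at 3384 and 1143 TPM summed, and their part in these values was not tested.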

How the results depend on the processing

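The median log2 fold change of the Cfap genes stayed below 0 under all 18 alternatives and was between -1.55 and -0.78 when 1 library was left out, but the number of calls depended on the setting. Over all genes, where the main fit called 8, the count was 304 with DESeq2, 35 without a filter, 18 with upper-quartile normalization, 855 without replicate 1 of both groups, 0 with filterByExpr, with a fit that was not robust, with limma-voom and with limma-trend, and 0 to 32 with 1 library left out. Of the Cfap genes, 0 in the main fit, 9 were called with DESeq2, 1 with upper-quartile normalization, 14 without replicate 1 of both groups and 0 to 1 with 1 library left out, where *Cfap74* was called without control replicate 1 and without control replicate 4. For central apparatus, radial spoke, nexin-dynein and ruler, doublet inner protein and regulator genes, the counts were 2, 1, 2, 3 and 1 with DESeq2 and 6, 9, 6, 7 and 2 without replicate 1 of both groups, and 0 with 1 library left out, except 0 to 1 for nexin-dynein and ruler genes. With the replicate number as a block, edgeR called 1464 genes, 23 of them Cfap genes, and 8, 9, 7, 9 and 5 of those lists in the same order, with a Cfap median of -1.22. Deviations of same-numbered libraries from their group means correlated at 0.70, 0.30, 0.09 and 0.32 for replicates 1 to 4, and not every library correlated best with its own number. Since 1 pair was under 0.1, the numbers were not taken as pairs, but the labels do not say whether a number marks a shared litter or day, and the 0 and the 23 Cfap calls differ by this choice.

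Sign turned for 4 genes with small differences. *Cfap100* was at 0.77 with limma-voom, 0.32 with the replicate block and -0.56 to 0.60 with 1 library left out, above 0 without control replicate 2 (0.60) and control replicate 3 (0.19). With 1 library left out *Cfap20dc* was at -0.217 to 0.0632, *Cfap47* at -0.356 to 0.0275 and *Cfap97d2* at -1.48 to 0.0197. They were above 0 without cKO replicates 2 and 4 and control replicates 1 and 4 (*Cfap20dc*), without cKO replicate 1 and control replicate 2 (*Cfap47*), and without control replicate 4 (*Cfap97d2*), and *Cfap47* was at 0.14 with limma-trend. The causes were not tested. With cKO libraries at or under 3 counts in 5 genes, depth limits the differences of *Cfap58*, *Cfap97d2*, *Cfap100*, *Cfap157* and *Cfap221*.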
